A study of Homo sapiens with 8 samples.

Results

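A set of 85 cytosines in 5′ UTRs, each given to 1 of 81 protein-coding host genes, stood alone among called cytosines in the bisulfite RNA sequencing of HEK293 cells, in most cases with the cytosines around them read as converted. The members were chosen from the bisulfite values themselves. A nuclear cytosine was called when it had at least 20 reads and when at least 20% of them were methylated, and it was isolated when no other called cytosine lay within 50 nt on its strand. It had to lie in a 5′ UTR of a protein-coding gene on that strand and in no coding sequence or 3′ UTR of it. Of 6649767 nuclear cytosines with at least 20 reads, 18690 were called and 1095 were isolated, and 85 of these were in 5′ UTRs. Among the 270661 5′ UTR cytosines with at least 20 reads, 906 were called, which is 0.335%, and 9.38% of those were isolated. The methylation levels below therefore describe the choice of members and were not tested. For 2 members the site also lay in the 5′ UTR of another gene, CCDC106 and ZNF581 at the ZNF580 cytosine and SEPTIN5 at one of those in ENSG00000284874.

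The study mapped RNA bound by a pair of cytosine methyltransferases, NSun3 and NSun6, in HEK293, an established human embryonic kidney line. In 6 miCLIP libraries, 3 per enzyme and taken 24 hours after transfection, a myc-tagged enzyme with a mutation that keeps it bound to its target cytosine was pulled down, and reverse transcription stopped beside that cytosine. The bisulfite libraries came from poly(A) RNA of 2 HEK293 samples, whose labels name no construct, converted with a commercial kit, and the values of both stand in 1 table. How the 2 samples were combined is not given in the sources used here, so no methylation value has a replicate error, and the 95% intervals are exact binomial intervals over reads that cover counting error only.

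In bisulfite sequencing an unmodified cytosine is deaminated and read as thymine, whereas 5-methylcytosine (m5C) resists and is still read as cytosine. A cytosine in a tightly folded stretch can also escape conversion, which usually leaves several unconverted cytosines side by side. In mRNA, m5C is made chiefly by members of the NSUN family, among them NSUN2, which is known for sites followed by guanines, and NSUN6, which is known for sites in a CTCCA context. The 5′ UTR is the stretch that the ribosome scans from the cap to the start codon, and in human genes it is rich in G and C.

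Many members had guanines right after the cytosine, and the pattern used to describe them was CNGGG, the cytosine followed by any base and then by guanines at the bases numbered +2, +3 and +4, read 5′ to 3′ on the transcript strand only. It includes every match of CGGGG. The following members of at least 50 reads show it in genomic sequence, with a guanine or another base at +1. For ZNF580 the guanine at +4 lies in the intron of the transcript used to place it. They were picked after their values were seen. Each line gives 12 genomic bases on either side of the methylated cytosine (hg19, 1-based, transcript strand), with the methylated cytosine and the rest of the pattern in capitals.
CSNK1A1, chr5:148930552-148930576, minus strand: tcccagaggtgtCGGGGcttggccc
OSBPL8, chr12:76953244-76953268, minus strand: actagacgcttaCGGGGcctcggac
EPHB4, chr7:100424818-100424842, minus strand: gcggcacagacgCGGGGccacactt
GPR137, chr11:64052680-64052704, plus strand: cgccgcccgcctCGGGGgacacctc
ZNF580, chr19:56152534-56152558, plus strand: gaggccgccgcaCGGGGtacggggg
KDM6A, chrX:44732585-44732609, plus strand: ccgctgccgaccCGGGGgctccgca
SLC6A8, chrX:152953923-152953947, plus strand: ggcccgcgccctCGGGGccctcccc
FAM229A, chr1:32827840-32827864, minus strand: ccctcgggtgtcCGGGGtctgcgcg
TOP2B, chr3:25706116-25706140, minus strand: cggctcgcacgcCCGGGcttcagcc
PDZD7, chr10:102790033-102790057, minus strand: gctcgaagcacgCAGGGctggcctc
RASGRP2, chr11:64510356-64510380, minus strand: ccggagcgcagcCTGGGcccagccc

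The next members, also of at least 50 reads, lack the pattern and include the highest levels outside it at that depth. Higher levels without it occurred among members of fewer reads. Only the methylated cytosine is in capitals.
DGCR2, chr22:19109736-19109760, minus strand: ccggccttccagCcgccccggggac
RABL6, chr9:139702466-139702490, plus strand: gcggctgaggttCccgagtcgccgc
CAMK2N1, chr1:20812004-20812028, minus strand: tagcggcgtcccCcggcctctcgcc
VPS26B, chr11:134094779-134094803, plus strand: tgcattgctgctCgggcgccgcagc
AKIRIN2, chr6:88411672-88411696, minus strand: ggggagccgcgcCtgaggaggcgga
RNF138, chr18:29672027-29672051, plus strand: ccccgttaggggCcgataagcacag

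CSNK1A1, which encodes casein kinase 1 alpha, a regulator of Wnt signalling, was the most deeply read member. At its cytosine, 377 of 1198 reads were methylated, a level of 31.5% (28.8% to 34.2%). The 34 cytosines within 50 nt that had at least 10 reads held 13 unconverted reads of 34022, or 0.0382%, and the highest single neighbour with at least 20 reads was at 0.323%. OSBPL8, a lipid transfer protein of the endoplasmic reticulum, reached 72.1% (80 of 111 reads, 62.8% to 80.2%), with 0.0659% unconverted around it. DGCR2, a membrane protein named for the DiGeorge critical region, reached 70.8% (85 of 120 reads, 61.8% to 78.8%), with 0.0190% around it. RABL6, a Rab-like GTPase, reached 51.9% (28 of 54 reads, 37.8% to 65.7%), and its neighbours held 0.579%. In CSNK1A1, OSBPL8 and DGCR2 no other cytosine in the window was above 1.33%. Read depth changed at these members. At the nearest cytosine before it, at the member and at the nearest after it, reads numbered 1284, 1198 and 773 in CSNK1A1. They numbered 137, 111 and 75 in OSBPL8, 197, 120 and 46 in DGCR2, and 81, 54 and 73 in RABL6. The levels count only reads with a call at the member, and the cause of the change in depth was not tested.

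**Figure D1:**
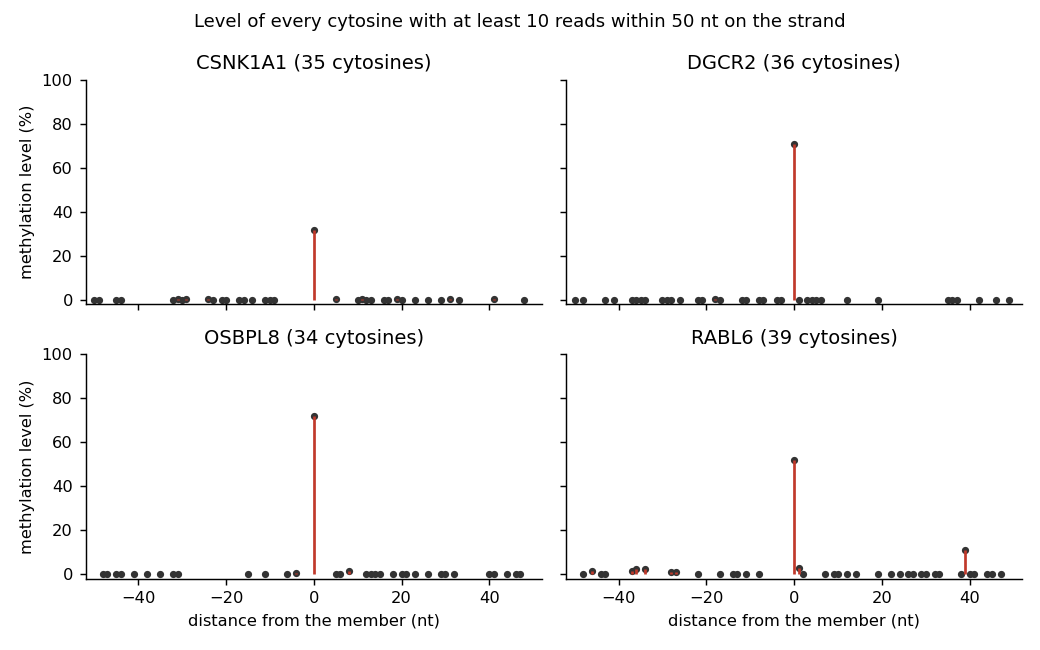
Methylation level (%) of every cytosine with at least 10 reads within 50 nt of the members in CSNK1A1, DGCR2, OSBPL8 and RABL6, by distance in nt along the transcript strand, with the member at 0. The members stand at 31.5%, 70.8%, 72.1% and 51.9%, and the highest other cytosine is one of RABL6 at 11.1%, from 18 reads.

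Most members had low levels near the threshold. The levels ran from 20% to 90.0% with a median of 29.2% and quartiles at 22.2% and 37.8%. Of the 85 members, 44 lay between 20% and 30%, 31 between 30% and 50%, and 10 at 50% or more. The depth behind them was uneven, from 20 to 1198 reads with a median of 37. As many as 32 members had 20 to 29 reads, 30 had at least 50 and 13 had at least 100. The 95% interval started at 10% or higher in 69 members and at 20% or higher in 28, so for most members the reads do not place the level above the threshold that chose it. Just inside the threshold lay RRAS2, a Ras-related GTPase, MLF2 and MCRIP1, each at 20% with 4 of 20 reads. Just outside lay isolated cytosines in CDK16 (48 of 243 reads, 19.8%), PDGFC (37 of 188, 19.7%) and DIPK1B (8 of 41, 19.5%).

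**Figure D2:**
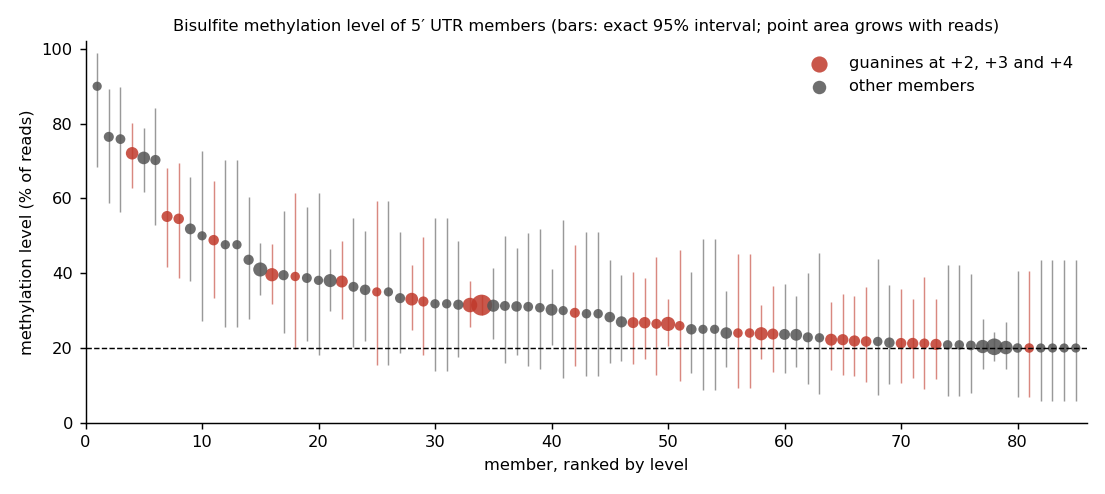
Methylation level (% of reads) of the 85 members ranked by level, with bars for the exact 95% interval, point area growing with reads, and a dashed line at the 20% threshold. The 31 members with guanines at +2 to +4 after the cytosine (red) lie between 20% and 72.1%, and the 3 highest members are without them.

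The remaining members named for a high level among those of at least 50 reads belong to several functions. CAMK2N1, an inhibitor of the kinase CaMKII, stood at 41.0% (82 of 200 reads), and EPHB4, an ephrin receptor tyrosine kinase, at 39.6% (59 of 149). VPS26B, a retromer subunit, stood at 38.0% (54 of 142), and PDE7A, a cAMP phosphodiesterase, at 37.8% (34 of 90). The neighbours of the PDE7A cytosine held 2.84% unconverted reads, and 4 of them were between 10% and 20%. The zinc finger gene ZNF580 stood at 33.1% (41 of 124) and GPR137, a lysosomal membrane protein, at 31.5% (74 of 235). Their intervals overlapped one another, from 24.9% at the lowest bound to 48.6% at the highest, and the order among these 6 was not tested. AKIRIN2, a nuclear import factor of the proteasome, had the second deepest coverage and stood at the threshold, at 20.3% (89 of 438 reads, 16.6% to 24.4%). SLC6A8, the creatine transporter, stood at 26.4% (55 of 208 reads), and its converted 32-base window occurs at 3 places in the converted genome.

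The highest level of all was read in CTDNEP1, a phosphatase of the nuclear envelope, where 18 of 20 reads were methylated (90.0%, 68.3% to 98.8%). ULK2, a kinase that starts autophagy, stood at 76.5% (26 of 34 reads), PRKCZ, an atypical protein kinase C, at 75.9% (22 of 29), and AKT2, a kinase of insulin signalling, at 70.3% (26 of 37). The neighbours of ULK2, PRKCZ and AKT2 held 0.106%, 0.0487% and 0.342% unconverted reads. Those of the CTDNEP1 cytosine held 5.89%, and 3 of them with 10 to 19 reads were themselves at 20% or more. A pair of members occurred in each of 4 genes. In CTDNEP1 the second cytosine stood at 21% (13 of 62 reads) and in AKT2 at 27.0% (17 of 63). In ENSG00000284874 the pair stood at 35.6% (16 of 45) and 30.8% (8 of 26). The neighbours of this pair held 2.13% and 1.88% unconverted reads, and 7 and 4 of them were between 10% and 20%. In EEF1D, a subunit of translation elongation factor 1, the cytosines lay in different exons and stood at 55.2% (32 of 58) and 54.5% (24 of 44).

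Around most members the cytosines were read as converted, which the rule in part required. Each member had 16 to 63 cytosines with at least 10 reads within 50 nt on its strand, with a median of 32. Over all of them 1833 of 232900 reads were unconverted, which is 0.787%. Over all 5′ UTR cytosines that were not called it was 0.179%, a set without the thinly read neighbours and without any cytosine at 20% or more. The median over members was 0.342%, 61 members had under 1%, and 11 had no unconverted read around them. The share was over 5% in 5 members. It was 38.5% for MBD5, a methyl-CpG-binding-domain protein whose member stood at 50% (10 of 20 reads), 10.9% for MPRIP, 7.78% for APAF1, 7.30% for SIRT2 and 5.89% for CTDNEP1. A neighbour just under the call, between 10% and 20%, occurred at 18 of 85 members (21.2%), among them AKIRIN2, where the highest was at 19%, and RNF138, where it was at 19.3%. In 12 members a neighbour too thinly read to be called, with 10 to 19 reads, was at 20% or more. Without those 12 members, 73 remained. The SIRT2 and ING5 windows recur 707 and 643 times in the converted genome, so their reads cannot be placed by these bases alone. None of the 55 members followed by G had 10 reads at the cytosine of the opposite strand.

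Guanine was frequent at the 4 bases after the cytosine and no longer at base +5. At the bases +1 to +4 on the 3′ side of the members, guanine made up 64.7%, 74.1%, 69.4% and 63.5% of bases, against 23.9%, 34.7%, 31.7% and 34.4% over all 5′ UTR cytosines with at least 20 reads. At base +5 the shares were 34.1% and 31.8%. On the 5′ side the bases differed less. Cytosine 3 bases upstream had the share of 50.6% in members and 36.2% over all. Counting guanines over the 4 bases, 21 members had 4, 35 had 3, 15 had 2, 12 had 1 and 2 had none. Thus 56 of 85 members, or 65.9%, had 3 or 4 guanines, against 9.40% of all 5′ UTR cytosines.

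**Figure D3:**
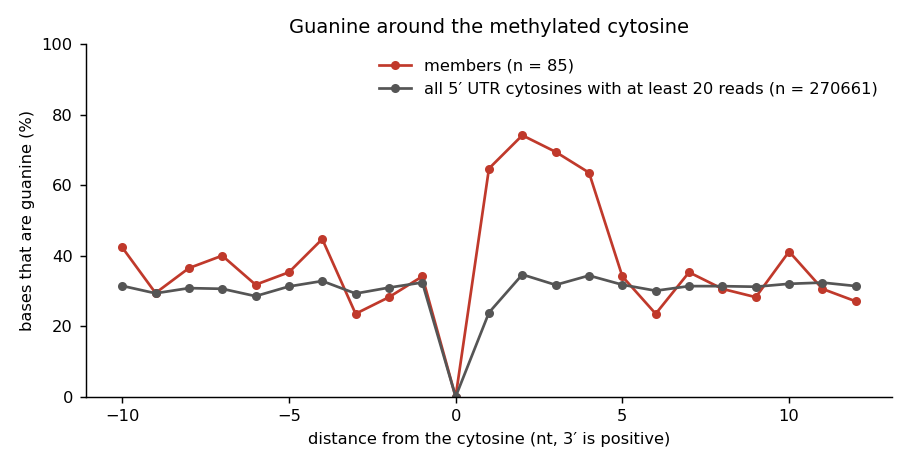
Share of bases that are guanine (%) by distance from the cytosine in nt, for the 85 members (red) and for all 270661 5′ UTR cytosines with at least 20 reads (grey). The members lie at 63.5% to 74.1% at distances of 1 to 4 and at 34.1% at a distance of 5, where all cytosines stand at 31.8%.

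The CNGGG pattern, read on genomic bases and so including ZNF580, began at 31 of 85 members, or 36.5% (26.3% to 47.6%). It began at 3.35% of all 5′ UTR cytosines with at least 20 reads. CGGGG began at 21 members (24.7%) against 0.743% of all, and CNGG at 44 members (51.8%) against 10.5% of all. Seen from the pattern, 31 of 9056 CNGGG cytosines were members (0.342%), against 54 of 261605 without it (0.0206%). A match is a description of the sequence and not evidence of which enzyme acted. CTCCA, read from the cytosine on the transcript strand, began at 0 of 85 members, which allows a share of up to 4.25%, and at 0.486% of all 5′ UTR cytosines.

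The share with CNGGG was larger among the better read members. It was 17 of 30 (56.7%) at 50 or more reads and 14 of 55 (25.5%) below, whereas over all 5′ UTR cytosines it was 3.15% and 3.53% at these depths. At 50 or more reads, 17 of 4132 CNGGG cytosines were members (0.411%) against 13 of 127146 without the pattern (0.0102%). Members with CNGGG had a median of 58 reads and a median of 0.108% unconverted reads around them. Members without it had a median of 31.5 reads and 0.606% around them. The part of depth in this difference was not tested. The median level was 26.5% with CNGGG and 30.5% without it.

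The pattern was also more common among 5′ UTR cytosines below the threshold that had some unconverted reads, which the rule had left out. It was held by 2.88% of cytosines under 0.1%, by 8.04% between 0.1% and 5%, by 11.8% between 5% and 10%, by 12.4% between 10% and 15%, and by 13.4% of the 314 cytosines between 15% and 20%. These bands hold isolated and clustered cytosines alike, so they are not to be set against the members. Among isolated cytosines at a level of at least 10% it was 37.4% of 198. Among members it was 43.2% between 20% and 30%, 29% between 30% and 50%, and 30% at 50% or more, the last from 10 members. Over all cytosines that were not called, 0.587% of reads were unconverted at CNGGG and 0.167% elsewhere. Of the 821 called 5′ UTR cytosines that were not isolated, 88 (10.7%) held CNGGG and 34.7% were followed by G, against 36.5% and 64.7% of the isolated ones. The rule that chose the isolated ones used no sequence.

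Compared with isolated cytosines elsewhere in mRNA, those of 5′ UTRs were more frequent per cytosine read. They made up 0.0314% of 5′ UTR cytosines with at least 20 reads, against 0.00635% in coding sequence (178 of 2802549) and 0.0144% in 3′ UTRs (272 of 1882705). In the remaining nuclear sequence the share was 0.0331%. All called cytosines, isolated or not, made up 0.335% in 5′ UTRs, 0.0634% in coding sequence, 0.253% in 3′ UTRs and 0.664% in the remainder. The higher share in 5′ UTRs than in the other mRNA regions is thus not particular to isolated cytosines. CNGGG was held by 28.7% in coding sequence (22.1% to 35.9%) and by 20.2% in 3′ UTRs (15.6% to 25.5%). The interval of the 5′ UTR members overlapped the former and not the latter. Over all cytosines with at least 20 reads the pattern was held by 3.35% in 5′ UTRs, 2.41% in coding sequence and 2.88% in 3′ UTRs, so the share in 5′ UTRs is not shown to stand further above its background than that in coding sequence. CTCCA began at 10.1% of the isolated coding cytosines (6.10% to 15.5%) and at 3.31% in 3′ UTRs (1.52% to 6.19%), and the limit of 4.25% in 5′ UTRs lay below the interval of coding sequence alone. Over all cytosines with at least 20 reads it began at 0.486%, 0.673% and 0.707% in 5′ UTRs, coding sequence and 3′ UTRs. Levels of at least 50% were reached by 11.8%, 12.9% and 4.78% of the isolated cytosines in 5′ UTRs, coding sequence and 3′ UTRs. These shares count cytosines of 1 pooled table, which are not replicates, and no test was made between regions.

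Predicted base pairing was compared around the cytosine. Windows of 61 genomic bases around each cytosine were folded, and the mean probability of being paired was taken at each base. At the bases +2 to +4 after members with CNGGG it was 0.801, 0.831 and 0.843, against 0.730, 0.772 and 0.763 after all 9056 CNGGG cytosines. At the base before the cytosine it was 0.343, against 0.552 for all CNGGG cytosines, and at the cytosine itself 0.473 against 0.606. At -6 it went the other way, at 0.712 against 0.560, and at +8 it was 0.461 against 0.531. None of these differences was tested. Over all 85 members the cytosine itself was at 0.564, close to the 0.545 of all 5′ UTR cytosines. These are predictions from genomic sequence, and they carry no measured structure.

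**Figure D4:**
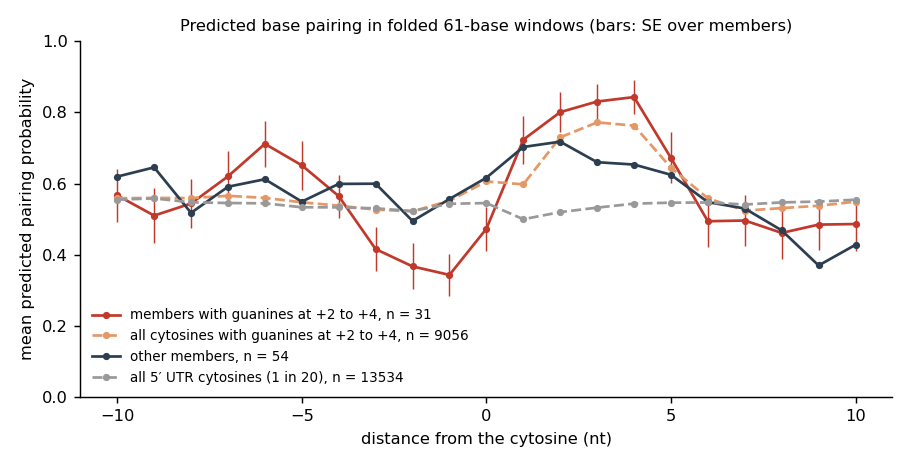
Mean predicted pairing probability by distance from the cytosine in nt, for members with (solid red, with SE over members) and without (solid dark) guanines at +2 to +4 and for all 5′ UTR cytosines with them (dashed orange) and a sample of 1 in 20 of all (dashed grey). The red line is lowest at the base before the cytosine, at 0.343, and highest at base +4, at 0.843.

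Members did not crowd at either end of the 5′ UTR. Of the 85, 61 (71.8%) lay in the 5′ UTR of the canonical transcript, as did 196711 of all 270661 5′ UTR cytosines, a similar share. In the first exon of the transcript used to place them lay 77, and this share was not computed over all cytosines. Outside the canonical 5′ UTR lay, among others, the members of GPR137, USP2, RNPS1, MCRIP1, ZNF532, SIRT2, AKT2, ING5, EIF4G1 and EEF1D. The AKT2 pair lay in the 5′ UTR of 1 of 29 coding transcripts. In canonical 5′ UTRs members lay a median of 250 bases from the transcript start and 132 bases from the first coding base. For all 196711 cytosines read there these medians were 205 and 117. The relative position had a median of 66.8% of the UTR, against 63.6%. Within 50 bases of the first coding base lay 27.9% of members and 26.7% of all cytosines. The UTRs with a member were 438 bases long at the median, against 372 for all cytosines. The OSBPL8 cytosine lay 147 bases and the CSNK1A1 cytosine 37 bases before the start codon, both in the first exon. The ZNF580 cytosine lay 16 bases before it and 3 bases from the end of its exon. The genomic bases from +4 on, among them the last guanine of its marked pattern, therefore lie in the intron.

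The host genes were counted in lists of genes of known function, drawn up by gene symbol and not complete. Of 5837 genes with a 5′ UTR cytosine of at least 20 reads, 81 were the host given to a member, or 1.39%. Translation factors held members in 2 of 36 genes (5.56%), EEF1D and EIF4G1. None of these members lay in the canonical 5′ UTR. The EEF1D cytosines lay in the 5′ UTRs of 3 and 2 of 48 coding transcripts, and the EIF4G1 cytosine in those of 2 of 31. EIF4G1, the scaffold of the cap-binding complex, stood at 22.9% (8 of 35 reads). The ubiquitin and proteasome list had 3 of 70 genes (4.29%), the deubiquitinases USP7 (38.1%, 8 of 21 reads) and USP2 (31.0%, 9 of 29) and the conjugating enzyme UBE2Q2 (29.2%, 7 of 24). Among chromatin enzymes, 2 of 33 (6.06%) had a member, the histone demethylases KDM6A (22.2%, 20 of 90 reads) and KDM5A (31.8%, 7 of 22). Near the KDM5A cytosine, 6 neighbours were between 10% and 20%. Solute carriers had 3 of 100, which were SLC6A8, SLC2A13, a myo-inositol transporter (47.6%, 10 of 21), and SLC16A10, a transporter of aromatic amino acids (21.4%, 9 of 42). ZNF genes had 2 of 154, ZNF580, whose cytosine ZNF581 shares, and ZNF532 (20.7%, 6 of 29). No member lay in the 52 cytoplasmic and 26 mitochondrial ribosomal protein genes, 48 hnRNP and splicing genes, 41 oxidative phosphorylation genes, 40 chaperones, 30 cyclins and their kinases or 4 m5C writers and readers that were read. RNPS1, a splicing regulator outside the splicing list, held a member at 21.2% (14 of 66 reads). Counts this small cannot tell any list from the share over all genes.

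The miCLIP libraries, which the rule did not use, had no read at any member. Over all 5′ UTR cytosines with at least 20 bisulfite reads, 0.534% had a read in at least 1 NSun6 library and 0.0107% in at least 1 NSun3 library, so 0 of 85 is not a result particular to the members. They held 138921, 53024 and 47352 reads for NSun3 and 323935, 467586 and 305392 for NSun6, so 0 reads allows up to 21.6, 56.6 and 63.4 RPM (reads scaled to the library total) for NSun3 and up to 9.26, 6.42 and 9.82 RPM for NSun6, taking 3 reads as the limit. Within 50 nt of a member lay 18, 80 and 84 NSun6 reads, 0.00556%, 0.0171% and 0.0275% of each library, a mean of 0.0167% ± 0.0110 (SD, n = 3). The NSun3 libraries held 0, 0 and 0. The libraries of the enzymes did not overlap (p = 0.1 in a two-sided exact permutation test, the lowest value possible for 3 libraries against 3). In 5′ UTRs as a whole lay 3.16% to 3.48% of NSun6 reads and 0.0739% to 0.110% of NSun3 reads. These were 10240, 15006 and 10627 NSun6 reads and only 153, 49 and 35 NSun3 reads. The test therefore cannot tell a difference near members from the difference over all 5′ UTRs, whose part in the counts was not tested. Across 1494 nuclear cytosines that passed the filter on low counts, 1315 (88.0%) differed between the enzymes by the quasi-likelihood test of edgeR at an adjusted p under 0.05, and none of the 85 members had a read to be tested.

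An NSun6 read lay within 50 nt of 9 of 85 members (10.6%), against 9.85% of all 5′ UTR cytosines with at least 20 bisulfite reads. For 2 members (2.35%) it did so in all NSun6 libraries, against 1.62% of all. An NSun3 read lay within 50 nt of 0.343% of all and of no member. The members' shares were thus near those of all 5′ UTR cytosines. RNF138, a ubiquitin ligase, had 11, 14 and 30 reads, the nearest of them 6 nt from the member, whose level was 20.1% (33 of 164 reads). DESI1, a deSUMOylating enzyme, had 7, 14 and 9 reads near a member at 39.5% (15 of 38). SERP1, a stress protein of the endoplasmic reticulum, had 0, 42 and 28 reads near a member at 23.5% (20 of 85), and KDM5A had 0, 3 and 9. CSNK1A1 had 4 reads in replicate 3 alone. The other 4 were EEF1D, APAF1, PRKCA and CTDNEP1. An exonic NSun6 read was found for 73 of 81 host genes (90.1%), against 82.0% of the 5837 genes with a 5′ UTR cytosine of at least 20 bisulfite reads. In all NSun6 libraries it was found for 45 host genes (55.6%), against 39.4% of these genes. An exonic NSun3 read was found for 6 host genes (7.41%), against 6.97%, and for these 6 in replicate 1 alone. In all NSun3 libraries it was found for 0 of 81 host genes and 0 of the 5837 genes. The difference of these shares was not tested. MLF2 held the most, at 1732, 2021 and 1942 RPM.

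Seen from the enzyme, 67 of 1794 nuclear NSun6 sites of over 50 RPM in at least 2 of 3 libraries lay in 5′ UTRs. Of these, 30 had at least 20 bisulfite reads, with a median of 120.5, and none was called, where 0.335% of all 5′ UTR cytosines were. At 13 of the 30 no read was methylated, against 91.8% of all 5′ UTR cytosines, and the highest level was 13.0%. The part of coverage in this was not tested. None of the 391 NSun3 sites outside mtDNA that passed the same RPM limit lay in a 5′ UTR, where 0.0739% to 0.110% of NSun3 reads lay. The limit asks for fewer reads of NSun3, since 1 read was 7.20 to 21.1 RPM there and 2.14 to 3.27 RPM for NSun6. None of the 30 was a member, and members were 0.0314% of all 5′ UTR cytosines, so 30 sites are too few to read an absence from.

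As a check of the cell line, VIM, KRT8, KRT18 and PAX2, which HEK293 cells express, had 595, 448, 369 and 53 exonic cytosines with at least 20 bisulfite reads, and ALB, HBB, PTPRC, CD3E and UMOD, genes of other cells, had none.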

How the data were processed

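The authors deposited read counts for both assays. The bisulfite table gives each cytosine a count of methylated and one of unmethylated reads. It also holds a percent column deposited by the authors. Each miCLIP file gives the count of reads that stopped at a position. The submitters' processing notes name Bismark, Bowtie and hg19. Per the study's methods, miCLIP reads with identical random barcodes were collapsed, reads under 18 nt were left out and 1 mismatch was allowed. Per those methods, bisulfite levels were made both with PCR duplicates and without them, and which of these the deposited table holds is not given in the sources used here.

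The percent column was not used and levels were recomputed from the read counts. Strand was read from the reference base (GRCh37), and regions came from GENCODE release 44 mapped to that build. Deposited positions were converted to 1-based coordinates. Members and gene lists were chosen with earlier results of these data known. Members are named for the 10 highest levels among those of at least 50 reads, the 5 with the most reads, the most miCLIP reads within 50 nt (up to 10, of which 9 had any), membership of a gene list, the 3 lowest levels and a pair in 1 gene. The other members named were chosen after their values were seen. The reference was searched for each member's 32-base window after conversion of C to T. Windows of 61 bases were folded with ViennaRNA 2.7.2 at 37 °C, taking all members, all CNGGG cytosines and every 20th of all 5′ UTR cytosines. Neighbours are cytosines with at least 10 reads.

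miCLIP files carry no strand column, and their first pass over the chromosomes was taken as the plus strand. On exons of 1 strand, 97.0% to 97.4% of NSun6 positions and 63.0% to 82.0% of NSun3 positions lay on the strand of the exon. Each stop was assigned to the closest cytosine, at most 2 nt away. edgeR 4.0.16 was fitted on nuclear cytosines (TMM, filterByExpr, Benjamini-Hochberg adjustment), with DESeq2 1.42.0 as an alternative. The choice of members, the motif calls and the edgeR fit were tested on simulated data, and the other steps were not. In the edgeR simulation 200 cytosines changed 8-fold, up and down in equal number. It does not cover a case where most tested cytosines differ, as the 88.0% did here. Nothing in the labels states separate cultures, so p-values measure the spread between these libraries. Columns of unmapped samples numbered 0.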

Additional observations from a re-analysis of the deposited data

How the results depend on the processing

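The number of isolated methylated 5′ UTR cytosines rested on the thresholds. It was 139 with a minimum of 10 reads and 33 with 50 reads, 198 at a level of at least 10%, 54 at 30% and 18 at 50%. The median level was 24.0% with a minimum of 10 reads, and 15.4%, 35.3% and 59.9% with the levels of 10%, 30% and 50%, which follows from the thresholds themselves. The share with CNGGG was 51.5% with 50 reads, and was 29.6% to 44.8% under the other 12 alternatives. The share followed by G was 44.4% at a level of at least 50% and 57.6% to 74.1% elsewhere, and the share with CTCCA was at most 0.505%. Requiring thin neighbours to be low left 73 members, single-copy windows 80, and an interval from 10% upwards 69. These 3 alternatives were chosen after seeing the data.

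The share of NSun6 reads within 50 nt of a member was 0.0113% to 0.0223% when 1 library was left out. No read reached a member under any of 10 alternatives. None of these could have given one, as the nearest read lay 6 nt from a member and the widest assignment was 5 nt. The share within 50 nt uses no assignment of reads to cytosines, so the other assignment distances were not run for it. The count of cytosines that differed between the enzymes by edgeR was 3261 of 90259 without the filter on low counts and 712 to 2523 without single libraries, lowest without NSun6 replicate 2 and highest without NSun3 replicate 1. Fewer or more cytosines passed the filter there (831 to 2933). Replicate numbers did not pair the libraries (correlations of deviations -0.0712, 0.0542 and 0.121), and with the replicate block 1091 cytosines differed. By DESeq2 1353 differed. No member was tested in any of these fits. The median depth of 37 reads limits most single levels.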
